A study of Homo sapiens with 7 samples.

Results

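The peaks described here lie in 6 intervals of human chromosome 19 that were given as the clusters of KRAB zinc finger genes, in BJAB cells, an established line of human B cells that goes back to a Burkitt's lymphoma. A peak was counted in an interval when its summit, the position of its highest signal, lay inside it; position alone chose the peaks, and no measured value did. Of the 132744 peaks that 5 ChIP-seq lists held on chromosomes 1 to 22 and X, 876 were members, and the rest of chromosome 19 held 7180. The members were 214 peaks of TRIM28, 342 of SPT5, 172 of RNA polymerase II (Pol II, antibody 8WG16), 142 of the O-GlcNAc antibody RL2 and 6 of O-GlcNAcase (OGA, labelled NCOAT). Each target had 1 library of cells with no stated treatment, so no difference could be set against the spread between replicates. Ranges in parentheses beside a value are 95% confidence intervals, which cover counting error only. Reads per library were not given in the files used, so the depth behind each list is unknown. The series also has mouse and rabbit IgG libraries, which were not analysed here. The zinc finger genes themselves were not placed, because the gene table at hand was of another genome build than the hg19 peaks, and the label of the intervals was thus not checked against an annotation.

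KRAB zinc finger proteins form a large family of DNA-binding repressors, and many of their genes arose by duplication side by side on chromosome 19. Their KRAB domain recruits TRIM28, a co-repressor that brings enzymes of repressive histone methylation to the bound site, often at transposable elements. TRIM28 is also known to sit on zinc finger genes themselves, mostly over the exons that encode the fingers and away from the promoter. SPT5 belongs to the DSIF complex, which holds Pol II in the pause after initiation and then travels with it. O-GlcNAc is a sugar on serines and threonines of many nuclear proteins, and OGA is the enzyme that takes it off.

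The 6 intervals, numbered along the chromosome, together spanned 11.5 Mb. Interval 1 ran from 11.6 to 12.7 Mb and held 132 peaks over all lists. Interval 2, from 19.7 to 24.4 Mb, was the longest and held 190. Interval 3, from 36.6 to 38.4 Mb, held 123, and interval 4, from 44.3 to 45.0 Mb, held 50. Interval 5, from 52.3 to 54.0 Mb, held 125, and interval 6, from 57.6 to 59.1 Mb near the end of the long arm, held 256. No peak of any list crossed a border of an interval. The rest of chromosome 19 was taken as 43.1 Mb, after leaving out stretches of over 1 Mb without a peak of any list, at 24.6 to 27.7 Mb and at 31.0 to 32.4 Mb. Such stretches were also left out of the other chromosomes, which were taken as 2463 Mb and to end at their last peak.

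All 5 targets had fewer peaks per Mb in the clusters than in the rest of chromosome 19, with confidence intervals that did not overlap. TRIM28 had 18.6 peaks per Mb in the clusters (16.2 to 21.3), against 44.2 in the rest of chromosome 19 (42.3 to 46.3), a ratio of 0.421 (0.364 to 0.485). SPT5 had 29.7 peaks per Mb (26.7 to 33.1) against 72.6 (70.1 to 75.2), a ratio of 0.409 (0.365 to 0.458). The ratio was nearer to 1 for Pol II, with 15.0 peaks per Mb in the clusters against 28.3 in the rest (ratio 0.528, 0.448 to 0.620), and nearest to 1 for O-GlcNAc, with 12.3 against 17.9 (ratio 0.691, 0.574 to 0.828). OGA, with the lowest ratio, had 0.522 peaks per Mb (0.191 to 1.14) against 3.50 (2.97 to 4.11), a ratio of 0.149 (0.0538 to 0.332). Among the 2561 strongest peaks of each list, 21 TRIM28 peaks lay in the clusters and the ratio to the rest of chromosome 19 was 0.984 (0.578 to 1.61), while for SPT5, with 33 peaks left, it was 0.745 (0.497 to 1.09). Pol II, at 0.579 (0.347 to 0.921), and O-GlcNAc, at 0.715 (0.529 to 0.951), stayed below 1 among these peaks. How reads that align to several near-identical genes were treated is not given, and its part in these densities was not tested.

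Measured against the other chromosomes, O-GlcNAc, Pol II and SPT5 were denser in the clusters. Counting the stretches without peaks in the length of the other chromosomes would raise each of these ratios, by an amount that was not computed. O-GlcNAc peaks were 3.65 times as dense in the clusters as on the other chromosomes (3.07 to 4.31), where they numbered 3.39 per Mb. Pol II was 1.99 times as dense (1.70 to 2.31) and SPT5 1.39 times (1.25 to 1.55). TRIM28 had 18.6 peaks per Mb in the clusters and 17.4 on the other chromosomes. With the length used here, its ratio of 1.07 had a confidence interval that held 1 (0.930 to 1.22). The ratio of OGA, 0.535 (0.196 to 1.17), was the lowest here too, with a confidence interval that held 1. For each Pol II peak, the clusters thus had 1.24 TRIM28, 1.99 SPT5, 0.826 O-GlcNAc and 0.0349 OGA peaks, whereas the rest of chromosome 19 had 1.56, 2.56, 0.631 and 0.124 and the other chromosomes 2.32, 2.84, 0.451 and 0.130.

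**Figure D1:**
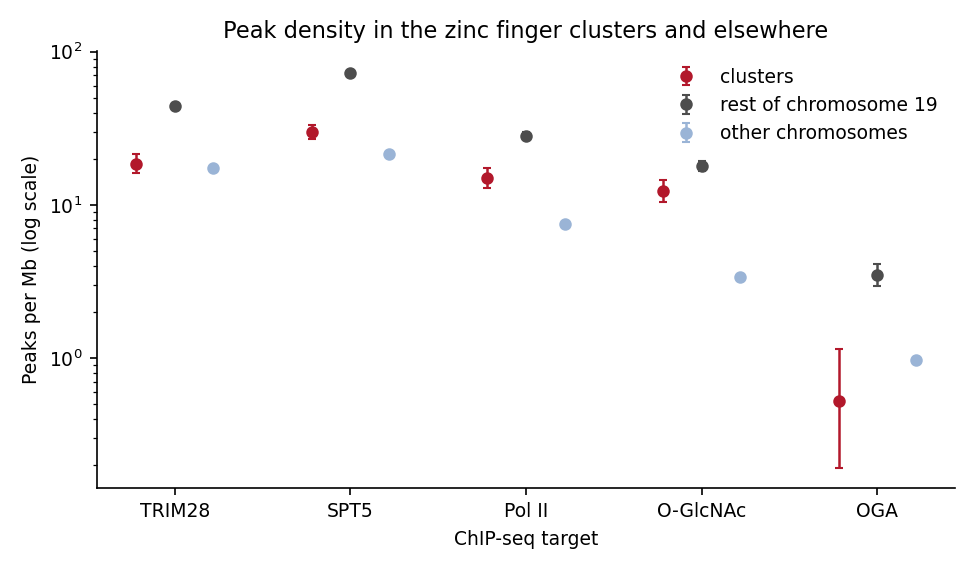
Peaks per Mb (log axis) of each target in the clusters (red), the rest of chromosome 19 (grey) and the other chromosomes (blue); bars are exact Poisson 95% intervals. Every red point lies below its grey point, and the O-GlcNAc point of the clusters, at 12.3 peaks per Mb, lies above the 3.39 of the other chromosomes.

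The clusters were not alike in density. Interval 2 was the emptiest for every target but OGA, which had 0 peaks in intervals 3 and 4. It had 10.6 TRIM28, 17.2 SPT5, 6.81 Pol II and 5.53 O-GlcNAc peaks per Mb. Interval 6 held the most SPT5 (72.0 per Mb, 59.1 to 86.9), Pol II (33.3, 24.7 to 43.9) and O-GlcNAc (30.0, 21.9 to 40.1), and these values stood near or above the rest of the chromosome. Interval 1 had the most TRIM28, with 37.3 peaks per Mb (26.7 to 50.6), followed by interval 6 with 34.7 (25.9 to 45.5), a pair of values whose confidence intervals overlapped. Intervals 3, 4 and 5 lay close together at 17.8, 15.7 and 16.5 TRIM28 peaks per Mb. For TRIM28, SPT5 and OGA, 6 of 6 intervals lay below the density of the rest of chromosome 19, and for Pol II and O-GlcNAc 5 of 6 did. The weight of single intervals was checked by leaving each out. Without interval 2 the ratio of the clusters to the rest of chromosome 19 was 0.545 for TRIM28, 0.727 for Pol II and 0.955 for O-GlcNAc, whose confidence interval then held 1 (0.779 to 1.16), and without interval 6 it was 0.366, 0.431 and 0.543.

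**Figure D2:**
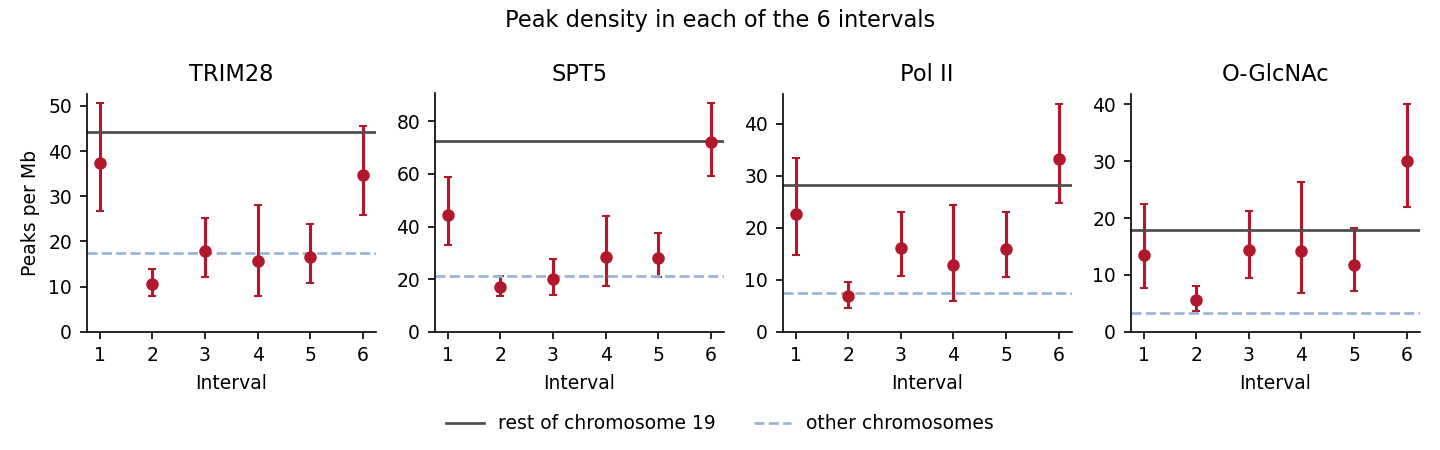
Peaks per Mb in each of the 6 intervals (points, exact Poisson 95% intervals) for TRIM28, SPT5, Pol II and O-GlcNAc, with the density of the rest of chromosome 19 (solid line) and of the other chromosomes (dashed line). Interval 2 is the lowest in all 4 panels, and interval 6 is the highest for SPT5, Pol II and O-GlcNAc.

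TRIM28 peaks of the clusters that stood alone were taller than those at Pol II sites. No other list overlapped 103 of the 214 (48.1%, exact binomial interval 41.3% to 55.0%), against 36.5% in the rest of chromosome 19 (34.3% to 38.7%) and 54.4% of the whole TRIM28 list. Their median fold enrichment over the authors' background was 4.70 in the clusters (4.38 to 5.45), against 3.93 in the rest (3.81 to 4.06) and 4.05 on the other chromosomes (4.03 to 4.07). By contrast, the 94 TRIM28 peaks with Pol II had a median of 2.76 in the clusters (2.64 to 3.03), against 2.99 for 798 such peaks in the rest (2.93 to 3.04). Over all TRIM28 peaks the medians were 3.38 in the clusters (3.19 to 3.66) and 3.27 in the rest (3.20 to 3.33), with confidence intervals that overlapped. Among peaks with a −log10 q of at least 5, the clusters exceeded the rest by 0.622 in the median (0.266 to 0.945). That range covers the error of the cluster median alone, with the median of the rest held fixed. The 90th percentiles differed more, at 8.30 in the clusters and 5.66 in the rest, while the highest peaks were near-equal, at 27.6 and 27.7.

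Of the TRIM28 peaks of the clusters, 33 (15.4%, 10.9% to 21.0%) belonged to the highest 10% of the list, which began at a fold enrichment of 6.48; in the rest of chromosome 19 it was 135 (7.08%, 5.97% to 8.32%), and by construction the share over the whole list is 10.0%. Of those 33 peaks, 31 had no other list on them (93.9%, 79.8% to 99.3%), against 108 of the 135 in the rest (80.0%, 72.3% to 86.4%) and 92.7% on the other chromosomes (91.9% to 93.5%), a share near that of the clusters. Peaks of this height numbered 2.87 per Mb in the clusters (1.98 to 4.03) and 3.13 in the rest (2.63 to 3.71), a ratio of 0.916 (0.606 to 1.35), and 1.76 on the other chromosomes (1.71 to 1.81). A difference from the rest was thus not detectable, and the density was above that of the other chromosomes. Interval 2 held 12 of them among its 50 TRIM28 peaks, interval 5 held 6 of 28, intervals 1 and 6 held 5 each, interval 3 held 3 and interval 4 held 2. Both the TRIM28 peaks at Pol II and the solitary ones were sparser in the clusters than in the rest of chromosome 19: those with Pol II stood at 8.17 per Mb in the clusters against 18.5 in the rest (ratio 0.442, 0.353 to 0.547), and those with no other list at 8.96 against 16.1 (ratio 0.555, 0.447 to 0.683). Relative to the other chromosomes the ratio was 1.68 (1.35 to 2.06) for those with Pol II, the opposite direction, and 0.931 (0.759 to 1.13) for the solitary ones.

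The solitary TRIM28 peaks have no Pol II peak on them by definition, and no difference in their distance to Pol II was detectable between the clusters and the rest. Their median distance to the nearest Pol II summit was 16.3 kb in the clusters (12.4 to 26.4), against 17.7 kb in the rest of chromosome 19 (14.8 to 20.3) and 49.4 kb on the other chromosomes (48.0 to 51.0). Within 5 kb of a Pol II summit lay 14 of the 103 (13.6%), against 21.6% of the 696 in the rest and 10.1% on the other chromosomes. TRIM28 peaks were also spread more thinly. Another TRIM28 peak lay within 2 kb of 47 of the 214 in the clusters (22%, 16.6% to 28.1%), against 37.5% in the rest (35.3% to 39.7%) and 28.4% of the whole list.

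**Figure D3:**
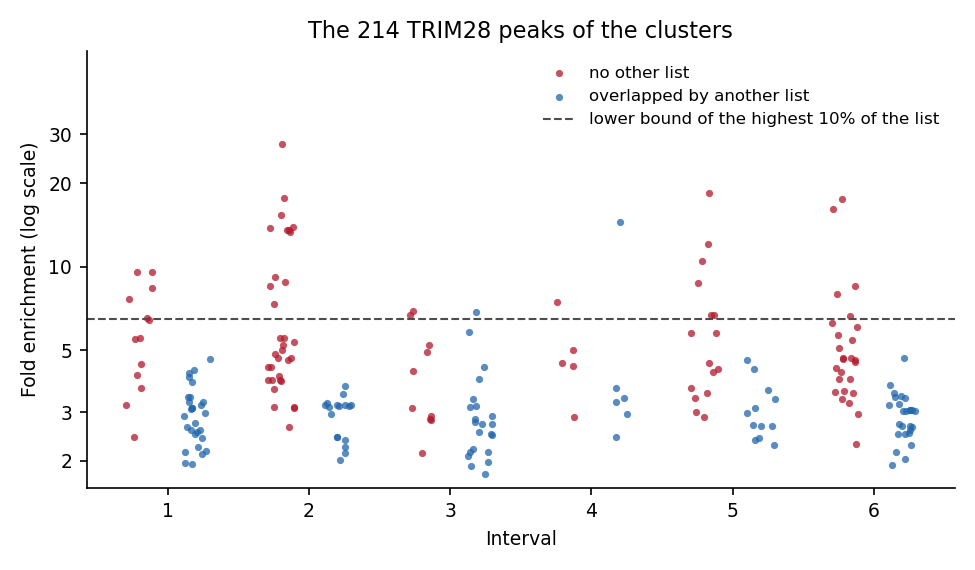
Fold enrichment over the authors' background (log axis) of each of the 214 TRIM28 peaks of the clusters by interval; red points have no other list on them and blue points overlap at least 1 other list, and the dashed line at 6.48 is the lower bound of the highest 10% of the whole list. Nearly all points above the line are red, and interval 2 holds 12 of the 33.

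The 5 highest TRIM28 peaks of the clusters all stood alone. The first, chr19:21518454-21519078 in interval 2 (hg19, as are all positions), had a fold enrichment of 27.6 and ranked 16 in the whole list. It was the only peak of the 214 in the clusters among the 100 highest of the 45003 TRIM28 peaks, against 4 of the 1907 in the rest of chromosome 19. Next came chr19:52333462-52333810 in interval 5 (18.4), chr19:23128367-23128742 in interval 2 (17.7), and chr19:58960227-58960767 (17.6) and chr19:58077754-58078279 (16.2) in interval 6. The highest peak of interval 1, chr19:12137986-12138433, reached 9.62, and that of interval 3, chr19:37855855-37856287, only 6.93. Among the highest peaks of the 6 intervals, the one of interval 4, chr19:44980685-44981618 (14.5), was the only one on an SPT5 peak; the other 5 had no other list on them.

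TRIM28 peaks of the clusters met O-GlcNAc more often than those in the rest of chromosome 19, by 11.8 points (5.47 to 18.7). This excess lay in the lowest and second quartiles of TRIM28 fold enrichment. SPT5 overlapped 110 of the 214 (51.4%, 44.5% to 58.3%), against 61.6% in the rest (59.3% to 63.8%) and 43.7% of the whole list. The SPT5 difference of -10.2 points (-17.2 to -3.19) was -4.86 without interval 2 (-12.8 to 2.81), and 4 of 6 intervals lay below the rest. In the third quartile of TRIM28 fold enrichment SPT5 lay at 30.8% (17.0% to 47.6%) against 52.9% in the rest (48.3% to 57.5%). In the highest it was 7.94% (2.63% to 17.6%) against 25.0% (20.5% to 29.9%). In the lowest and second quartiles the clusters had the higher share, with confidence intervals that overlapped. Pol II overlapped 94 (43.9%, 37.2% to 50.9%), against 41.8% (39.6% to 44.1%) and 28.6% of the whole list, a difference of 2.08 points (-4.78 to 9.13). O-GlcNAc overlapped 74 (34.6%, 28.2% to 41.4%), against 22.8% (20.9% to 24.7%) and 13.0% of the whole list. OGA overlapped 6 (2.80%, 1.04% to 6.0%), against 7.08% (5.97% to 8.32%) and 5.12% of the whole list. The OGA difference of -4.28 points (-6.23 to -0.924) had a confidence interval that held 0 at a −log10 q of at least 5 (-5.89 to 0.417), without interval 2 (-6.17 to 0.00212), without interval 3 (-5.95 to 0.0759) and without interval 6 (-6.15 to 0.0837). The share of TRIM28 peaks with no other list ran from 31.2% of 32 in interval 3 and 31.7% of 41 in interval 1 to 66.0% of 50 in interval 2. In the lowest quartile of TRIM28 fold enrichment Pol II lay at 49 of 58 peaks of the clusters (84.5%, 72.6% to 92.7%), against 55.8% in the rest (51.7% to 59.9%) and 48.1% on the other chromosomes. In the highest quartile it lay at 3 of 63 (4.76%, 0.993% to 13.3%), against 12.8% in the rest (9.45% to 16.8%) and 6.83% on the other chromosomes. Low TRIM28 peaks were thus at Pol II more often in the clusters than in the rest, while the confidence intervals of the highest quartile overlapped. O-GlcNAc lay at 65.5% of the lowest quartile in the clusters (51.9% to 77.5%), against 31.3% in the rest (27.5% to 35.3%). In the second quartile it was 51.9% (37.8% to 65.7%) against 27.3% (23.6% to 31.4%). The third had 17.9% against 18.5% and the highest 1.59% against 7.27%, both with confidence intervals that overlapped.

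At Pol II peaks, of the 4 other lists O-GlcNAc differed most between the clusters and the rest of chromosome 19. O-GlcNAc peaks overlapped 138 of the 172 Pol II peaks of the clusters (80.2%, 73.5% to 85.9%), against 53.5% in the rest (50.6% to 56.3%) and 40.2% of the whole Pol II list. The difference was 26.8 percentage points (Newcombe interval 19.6 to 32.7). TRIM28 was the reverse, at 82 Pol II peaks (47.7%, 40.0% to 55.4%), against 60.7% in the rest (57.9% to 63.4%) and 59.9% of the whole list, a difference of -13.0 points (-20.8 to -5.08). SPT5 was present at 170 of the 172 (98.8%), against 97.7% in the rest and 95.5% of the whole list. OGA was present at 5 (2.91%, 0.95% to 6.65%), against 7.37% in the rest (5.97% to 8.98%) and 6.03% of the whole list. Only 2 Pol II peaks of the clusters (1.16%) had no other list on them, against 1.56% in the rest and 3.56% of the whole list.

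Of the combinations at Pol II, SPT5 with O-GlcNAc and without TRIM28 or OGA was more frequent in the clusters, and SPT5 with TRIM28 and without O-GlcNAc or OGA was less frequent. The first was found at 66 Pol II peaks of the clusters (38.4%, 31.1% to 46.1%), against 20.1% in the rest (17.9% to 22.4%) and 11.3% on the other chromosomes. SPT5, TRIM28 and O-GlcNAc without OGA were found at 67 (39.0%, 31.6% to 46.7%), against 29.2% in the rest (26.6% to 31.8%) and 24.7% on the other chromosomes. SPT5 and TRIM28 without O-GlcNAc or OGA were found at 11 Pol II peaks of the clusters (6.40%, 3.24% to 11.2%), against 24.6% in the rest (22.2% to 27.1%) and 28.8% on the other chromosomes.

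**Figure D4:**
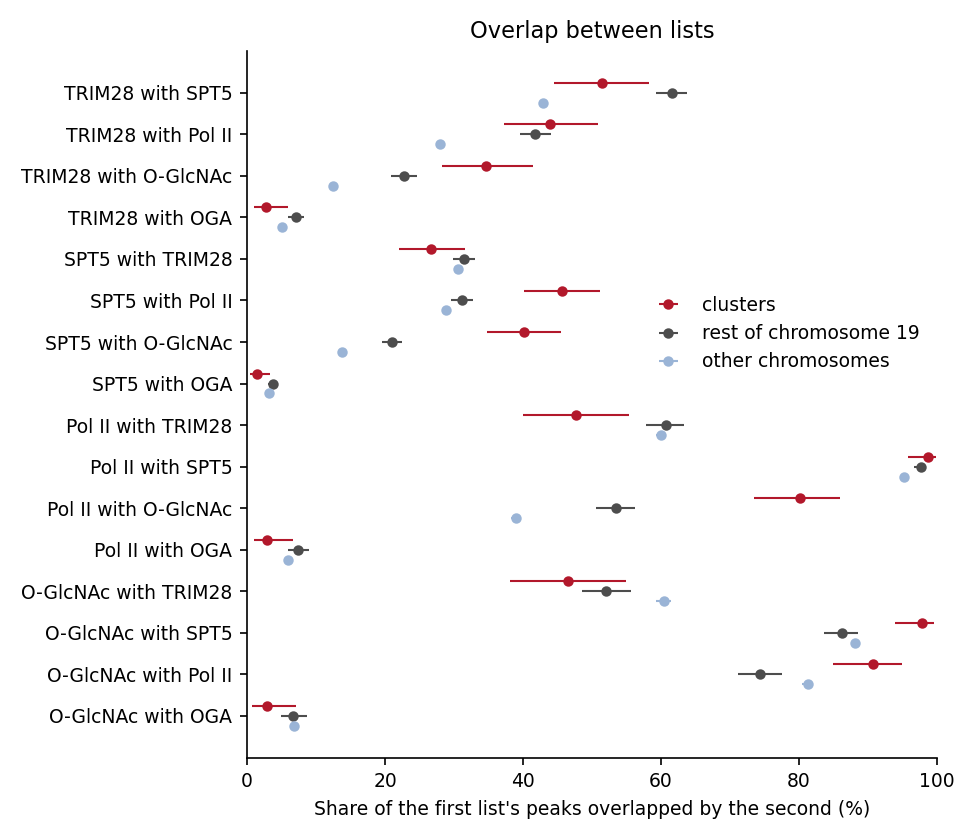
Share of the peaks of the first list named that the second list overlaps by at least 1 bp, in the clusters (red), the rest of chromosome 19 (grey) and the other chromosomes (blue), with exact binomial 95% intervals. Among the pairs plotted, which leave out those with OGA named first, the gap between red and grey is largest for Pol II with O-GlcNAc, at 80.2% and 53.5%.

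Pol II peaks of the clusters had a higher median height and width, and were more isolated, than those of the rest of the chromosome. Their median fold enrichment was 6.40 (5.88 to 6.97), against 4.80 in the rest (4.60 to 5.02) and 4.90 on the other chromosomes. The 10th percentile was higher too, at 3.35 in the clusters against 2.78 in the rest, as was the 90th, at 10.4 against 9.68. The highest peak was lower, at 14.9 in the clusters against 21.4 in the rest. Of the Pol II peaks of the clusters 12.8% belonged to the highest 10% of the list (8.19% to 18.7%), against 9.42% in the rest (7.84% to 11.2%) and 10.0% by construction. Median widths were 551 bp (506 to 590), 466 bp in the rest (442 to 495) and 507 bp on the other chromosomes (499 to 514). The share of peaks over 1 kb was 9.88% in the clusters against 10.2% in the rest. Another Pol II peak lay within 2 kb of 32 of the 172 (18.6%, 13.1% to 25.2%), against 47.2% in the rest (44.3% to 50.0%) and 37.7% of the whole list. The median distance to the next Pol II summit was 21.3 kb in the clusters (18.9 to 26.8) and 2.51 kb in the rest (1.99 to 2.94).

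On the other chromosomes O-GlcNAc lay at 11.7% of Pol II peaks in the lowest quartile of Pol II fold enrichment and at 61.2% in the highest. The clusters and the rest were therefore also compared within quartiles, with a weighting chosen after seeing the data. In the lowest quartile O-GlcNAc lay at 11 of 18 Pol II peaks of the clusters (61.1%, 35.7% to 82.7%), against 26.8% in the rest of chromosome 19 (21.9% to 32.3%). In the second it lay at 30 of 33 (90.9%, 75.7% to 98.1%), against 44.1% (38.7% to 49.7%). The gap narrowed in the upper quartiles, to 82.8% (70.6% to 91.4%) against 69.7% (64.2% to 74.9%) in the third and 77.8% (65.5% to 87.3%) against 74.8% (69.4% to 79.7%) in the highest, and in both the confidence intervals overlapped. With the rest of chromosome 19 weighted to the quartiles of the clusters, its share was 62.2%, against 80.2% in the clusters. For TRIM28 the weighting widened the gap, to 47.7% in the clusters against 65.5% in the weighted rest. The TRIM28 share was lower in the clusters in every quartile, but the confidence intervals were apart only in the second. There it was 27.3% (13.3% to 45.5%) against 56.8% (51.2% to 62.1%).

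Pol II peaks without O-GlcNAc were about as high as those with it in the clusters, whereas they were lower in the rest of chromosome 19. The 34 without O-GlcNAc in the clusters had a median fold enrichment of 6.23 (5.46 to 8.29) beside 6.42 for the 138 with it (5.89 to 7.02). In the rest the medians were 3.73 without (3.59 to 3.90) and 5.89 with O-GlcNAc (5.64 to 6.21). Interval 1 held 12 of the 34, and O-GlcNAc lay at 13 of its 25 Pol II peaks (52.0%, 31.3% to 72.2%), the lowest share of the 6 intervals and below that of the rest of chromosome 19. The shares were 75.0% of 32 Pol II peaks in interval 2 and 70.4% of 27 in interval 5. They were 93.1% of 29 in interval 3, 100% of 9 in interval 4 and 92.0% of 50 in interval 6. The TRIM28 share at Pol II was highest in interval 3, at 69.0% (49.2% to 84.7%), and lowest in interval 5, at 33.3% (16.5% to 54.0%), and 5 of 6 intervals lay below the rest of the chromosome.

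**Figure D5:**
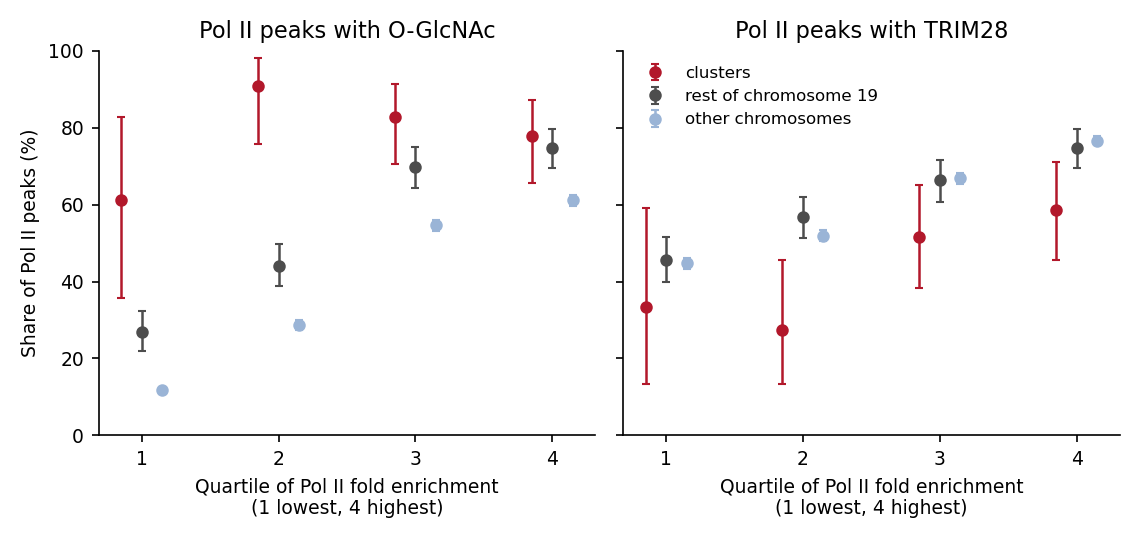
Share of Pol II peaks overlapped by O-GlcNAc (left) and by TRIM28 (right) within genome-wide quartiles of Pol II fold enrichment, in the clusters (red), the rest of chromosome 19 (grey) and the other chromosomes (blue), with exact binomial 95% intervals. O-GlcNAc in the clusters lies above the rest most clearly in quartile 2 (90.9% against 44.1%). TRIM28 lies below the rest in all 4 quartiles, with confidence intervals apart only in quartile 2 (27.3% against 56.8%).

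The 3 highest Pol II peaks of the clusters all carried TRIM28, SPT5 and O-GlcNAc. They lay at chr19:53445543-53446094 in interval 5 (fold enrichment 14.9), chr19:37708447-37709409 in interval 3 (14.5) and chr19:19976499-19977107 in interval 2 (12.8). None of the 172 was among the 100 highest of the 19889 Pol II peaks, against 6 of the 1221 in the rest of chromosome 19. A count of 0 among so few peaks is near the share of the whole list. The highest of the 172 ranked 232.

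SPT5 peaks of the clusters sat at Pol II more often, and stood higher, than those in the rest of the chromosome. Pol II overlapped 156 of the 342 (45.6%, 40.2% to 51.1%), against 31.1% in the rest (29.5% to 32.8%) and 29.1% of the whole list. O-GlcNAc overlapped 137 (40.1%, 34.8% to 45.5%), against 21.0% (19.6% to 22.5%) and 14.2% of the whole list, and each of the 6 intervals lay above the rest for both. TRIM28 overlapped 91 (26.6%, 22% to 31.6%), against 31.4% in the rest (29.8% to 33.1%) and 30.7% of the whole list; the difference of -4.82 points (-9.52 to 0.359) was -13.0 with the rest weighted to the SPT5 heights of the clusters. OGA overlapped 5 (1.46%, 0.476% to 3.38%), against 3.74% in the rest (3.10% to 4.46%) and 3.20% of the whole list. Under that weighting, chosen after seeing the data, the gap in Pol II all but closed and that in O-GlcNAc narrowed. The share with Pol II was 45.6% in the clusters against 44.9%, and that with O-GlcNAc was 40.1% against 30.7%.

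The median SPT5 fold enrichment was 4.56 in the clusters (4.09 to 5.22), against 3.44 in the rest (3.38 to 3.51), a difference of 1.12 that was 2.53 among peaks with a −log10 q of at least 5. The highest 10% of the SPT5 list held 87 of them (25.4%, 20.9% to 30.4%), against 11.5% in the rest (10.4% to 12.7%) and 10.0% by construction. Where Pol II was present the SPT5 median was 9.42 in the clusters (8.55 to 10.2) and 7.25 in the rest (6.90 to 7.68), while without Pol II it was 3.19 in the clusters (3.04 to 3.31) and 3.07 in the rest (3.04 to 3.10). SPT5 peaks away from the other lists were sparser in the clusters than in the rest of chromosome 19, and for the highest peaks no such difference in density was detectable. The 166 with no other list (48.5% of the SPT5 peaks of the clusters, against 56.6% in the rest and 59.0% of the whole list) gave 14.4 per Mb in the clusters against 41.1 in the rest (ratio 0.351, 0.298 to 0.412). Peaks of the highest 10% stood at 7.57 per Mb against 8.37 (ratio 0.903, 0.706 to 1.14). Relative to the other chromosomes the ratio was 1.14 (0.976 to 1.33) for SPT5 peaks with no other list and 3.61 (2.89 to 4.47) for the highest 10%. The median width of SPT5 peaks was higher in the clusters, at 592 bp (532 to 645), against 466 bp in the rest (445 to 487). On the other chromosomes it was 410 bp (407 to 414). The widest SPT5 peak of the clusters spanned 2946 bp, against 23369 bp in the rest, and the share of SPT5 peaks over 1 kb was 16.4% against 19.5%. Another SPT5 peak lay within 2 kb of 43.0% of them (37.7% to 48.4%), against 64.6% in the rest (62.9% to 66.3%) and 60.6% of the whole list.

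The 3 highest SPT5 peaks of the clusters were chr19:59055119-59056538 in interval 6 (fold enrichment 21.0, rank 44 of the list), chr19:38210061-38210966 in interval 3 (17.8) and chr19:19843628-19844285 in interval 2 (17.8). Each of them overlapped Pol II, TRIM28 and O-GlcNAc. SPT5 was highest in interval 3, with a median of 7.20 (4.23 to 9.34) over 36 peaks, and lowest in interval 4, with 3.76 (2.92 to 4.91) over 20, with confidence intervals that overlapped.

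O-GlcNAc peaks of the clusters lay on SPT5 and Pol II peaks more often than those in the rest of the chromosome. SPT5 overlapped 139 of the 142 (97.9%, 94.0% to 99.6%), against 86.2% in the rest of chromosome 19 (83.6% to 88.6%) and 88.2% of the whole list. Pol II overlapped 129 (90.8%, 84.9% to 95%), against 74.4% in the rest (71.2% to 77.5%) and 80.8% of the whole list. The remaining targets were less frequent there, with confidence intervals that overlapped those of the rest. TRIM28 overlapped 66 (46.5%, 38.1% to 55.0%), against 52.1% (48.5% to 55.7%) and 59.5% of the whole list. OGA overlapped 4 (2.82%, 0.773% to 7.06%), against 6.62% (4.97% to 8.62%) and 6.70% of the whole list. Peaks with O-GlcNAc alone numbered 3 (2.11%, 0.438% to 6.05%), against 94 in the rest (12.2%, 9.98% to 14.7%) and 10.5% of the whole list. Another O-GlcNAc peak lay within 2 kb of 6 of the 142 (4.23%, 1.57% to 8.97%), against 17.9% in the rest (15.3% to 20.8%) and 10.7% of the whole list.

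No difference in the height of O-GlcNAc peaks was detectable between the clusters and the rest of the chromosome. The medians were 4.51 in the clusters (4.15 to 5.14) and 4.47 in the rest (4.39 to 4.59), both above the 3.82 of the other chromosomes (3.77 to 3.86). The highest 10% of the list held 13.4% (8.25% to 20.1%), against 17.5% in the rest (14.9% to 20.4%) and 10.0% by construction. Among the intervals, interval 4 had the highest median, 7.64 (3.55 to 8.55) over 10 peaks, and 7 of these belonged to the highest 10%, whereas 0 of 15 in interval 1 and 0 of 26 in interval 2 did. Interval 6 followed with a median of 5.40 (4.77 to 6.04) over 45 peaks. Without interval 6 the median of the clusters minus that of the rest was -0.343 (-0.625 to 0.170, error of the cluster median alone). The highest O-GlcNAc peak, chr19:37263508-37264191 in interval 3 (fold enrichment 12.2, rank 37), overlapped SPT5 and no Pol II peak. The next, chr19:44617215-44617813 in interval 4 (11.2) and chr19:57998900-57999324 in interval 6 (10.7), overlapped SPT5 and Pol II but no TRIM28.

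OGA had 6 peaks in the clusters, and all 6 lay on TRIM28 peaks, against 89.4% in the rest of chromosome 19 and 90.0% of the whole OGA list. SPT5 was present at 5 of them, against 82.1% in the rest and 71.9% of the whole list. Pol II was present at 4, against 59.6% in the rest and 46.2% of the whole list. O-GlcNAc was also present at 4, against 34.4% in the rest (26.9% to 42.6%) and 24.1% of the whole list. With 6 peaks the difference in the O-GlcNAc share, 32.2 points (-5.27 to 56.9), was within counting error. None was in the highest 10% of the OGA list, against 13.9% in the rest and 10.0% by construction, and none had another OGA peak within 2 kb, against 9.93% in the rest and 6.91% of the whole list. Taking 3 counts as the limit that a count of 0 allows, OGA could have had up to 1.67 peaks per Mb in interval 3 and 4.29 in interval 4; the exact Poisson upper limits were 2.05 and 5.27.

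At 4 of the 6 OGA peaks all 5 lists met. The highest, chr19:11849507-11849838 in interval 1, had an OGA fold enrichment of 4.69 and overlapped peaks of 13.4 for SPT5, 5.97 for Pol II, 3.91 for O-GlcNAc and 2.42 for TRIM28, each a fold enrichment within its own list. Its summit lay 15 bp from that of TRIM28, 74 bp from that of Pol II, 201 bp from that of O-GlcNAc and 320 bp from that of SPT5. At chr19:52693311-52693680 in interval 5 (OGA 4.33) the overlapping peaks were 11.3 for SPT5, 5.15 and 3.06 for a pair of Pol II peaks, 3.73 for O-GlcNAc and 2.69 for TRIM28. At chr19:19774267-19774789 in interval 2 (OGA 4.02) they were 9.79 for SPT5, 8.39 for Pol II, 4.15 for O-GlcNAc and 3.18 for TRIM28. The last, chr19:58873858-58874062 in interval 6, was a low OGA peak of 2.87 on peaks of 7.39 for SPT5, 7.14 for Pol II, 3.98 for O-GlcNAc and 3.51 for TRIM28. The other two OGA peaks were chr19:11679111-11679432 in interval 1 (2.61), with TRIM28 and SPT5, and chr19:52328019-52328232 in interval 5 (3.24), with TRIM28 alone.

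Where lists overlapped, O-GlcNAc summits lay closer to Pol II and SPT5 in the clusters than in the rest of the chromosome. The median distance to the closest Pol II summit was 137 bp (126 to 154) at 129 O-GlcNAc peaks, against 173 bp (163 to 183) at 573. On the other chromosomes it was 155 bp (152 to 157), with a confidence interval that overlapped that of the clusters. To the nearest SPT5 summit the distance was 118 bp in the clusters (109 to 131), against 152 bp in the rest (145 to 161) and 135 bp on the other chromosomes (132 to 138). SPT5 and Pol II summits nearly coincided in both, at 22 bp in the clusters (16 to 26) and 23 bp in the rest (21 to 26). TRIM28 summits lay a median of 150 bp from Pol II in the clusters (81 to 180) and 134 bp in the rest (120 to 152), with confidence intervals that overlapped.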

How the data were processed

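Chromatin of BJAB cells was fixed with 1% formaldehyde for 5 min, per the labels' protocols, and each of 7 libraries was 1 group. The submitters' processing notes name bcl2fastq 2.17, Trimmomatic 0.30, Bowtie2 2.1.0 and the build hg19; not given in the sources used here are the peak caller, its control, its threshold and the treatment of reads that align to several near-identical genes. Peaks were listed per sample. The fold enrichment deposited by the authors is a ratio to their background and was compared only inside a list. Peaks were filtered by the −log10 q and shortened lists ranked by the −log10 p, both as deposited; the smallest −log10 q was 1.30. Depth is unknown.

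Densities have exact Poisson intervals and exact conditional intervals of their ratios, shares exact Clopper-Pearson intervals, differences of shares Newcombe intervals and medians order-statistic intervals, all at 95%. The range of a difference of medians is that of the cluster median, with the median of the rest held fixed. No test across replicates was possible. Counts of overlaps (at least 1 bp) were the same in bedtools 2.31.1 for 20 of 20 pairs of lists, and the interval functions were tested on simulated data. Sites named are the 5 highest TRIM28 peaks of the clusters, the top TRIM28 peak of every interval, the top 3 of the remaining lists and the places where all 5 lists met; the other OGA peaks were added after their values were seen. The members, lists and comparisons were chosen with earlier results of these data known. Alternatives were a −log10 q of at least 5, whole peaks inside, each interval left out, other references and the full length of chromosome 19. Further ones were merged or shortened lists, other definitions of overlap and −log10 p as height. Python 3.11.15, numpy 2.4.6, pandas 2.3.3, scipy 1.17.1 and matplotlib 3.10.9 were used.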

Additional observations from a re-analysis of the deposited data

How the results depend on the processing

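Of 350 recomputed values, 316 stayed within the interval of the reported value (for −log10 p as height, within its direction), and 331 kept their direction. Some of these values could not change. No peak crossed a border, so the 30 values with whole peaks inside or outside equalled the reported ones. Also fixed were the OGA density with lists shortened to the OGA length, and the OGA-list shares and heights without interval 3 or interval 4. With all other sequence of chromosomes 1 to 22 and X as the reference, the density ratio was 3.40 for O-GlcNAc, 1.90 for Pol II, 1.34 for SPT5 and 1.04 for TRIM28, which turns the direction of these 4, and 0.512 for OGA. The confidence intervals of TRIM28 (0.906 to 1.19) and OGA (0.188 to 1.12) held 1, so for these no difference from that reference was detectable. Under that reference, shares in the clusters minus the reference were 7.73 points for TRIM28 with SPT5 (a turn from -10.2), 15.4 for TRIM28 with Pol II, 21.7 for TRIM28 with O-GlcNAc, 40.4 for Pol II with O-GlcNAc, 3.38 for Pol II with SPT5 and 26.0 for SPT5 with O-GlcNAc, and the difference in median TRIM28 fold enrichment was -0.119. With each list shortened to its 2561 strongest peaks, the density ratio to the rest of chromosome 19 was 0.984 (0.578 to 1.61) for TRIM28, with 21 peaks left in the clusters, and 0.745 (0.497 to 1.09) for SPT5, with 33. For Pol II the shortened list gave 0.579 (0.347 to 0.921) and for O-GlcNAc 0.715 (0.529 to 0.951). With peaks within 500 bp merged the ratio was 0.490 for SPT5. When 1 interval at a time was left out, density ratios ranged from 0.543 to 0.955 for O-GlcNAc, 0.431 to 0.727 for Pol II, 0.322 to 0.528 for SPT5 and 0.366 to 0.545 for TRIM28, the share of OGA with SPT5 from -7.12 to 17.9 points and the median O-GlcNAc difference from -0.343 to 0.323. A −log10 q of at least 5 gave differences in median fold enrichment of 0.622 for TRIM28 and 2.53 for SPT5. The TRIM28 range (0.266 to 0.945) no longer held 0, but it covers the error of the cluster median alone. An overlap of 50% of the shorter peak gave 22.5 points for O-GlcNAc with Pol II; summits within 250 bp gave 21.4 for O-GlcNAc with Pol II, 23.0 for O-GlcNAc with SPT5 and 9.92 for Pol II with SPT5. With the rest weighted to the heights of the clusters, an alternative chosen after seeing the data, the differences were 18.0 points for Pol II with O-GlcNAc, 9.38 for SPT5 with O-GlcNAc, 0.760 for SPT5 with Pol II and -13.0 for SPT5 with TRIM28. The cause of these changes was not tested. No paired analysis was possible because each target has 1 library. Read totals of the libraries are unknown, and the 6 OGA peaks limit every share of that list.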
